A study of Mus musculus with 9 samples.

Results

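The genes described here are the heat shock protein and chaperonin genes of the mouse oocyte, followed across 3 genotypes. A member was any gene measured by a probe set that names exactly 1 gene symbol, where that symbol begins with Hspa, Hspb, Hsph, Hsp90, Dnaja, Dnajb, Dnajc or Cct followed by a digit, or is Hspd1 or Hspe1. This rule found 79 genes among the 19938 genes with such a probe set, and each was read from the probe set with the highest mean signal over the 9 arrays. No measured difference between genotypes entered the rule. Signal reached 4 (log2) in at least 3 of the 9 arrays for 76 members, which were tested, and did not for Cct8l1, Dnajb3 and Dnajb7, which were not.

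The arrays measured RNA from ovulated oocytes arrested at metaphase II. The groups were wild-type oocytes, oocytes lacking Dgcr8 and oocytes lacking Dicer, with 3 biological replicates of each. The labels give every group as C57BL/6 and every oocyte as collected from gonadotropin-treated females. In every group the gonadotropins were 7.5 IU of PMSG and 7.5 IU of hCG. Collection was 16 hours after hCG by the labels and 14 to 16 hours after it by the protocol. Hyaluronidase was used at 0.3 mg/ml in every group. Dgcr8 works with the nuclease Drosha in the nuclear step of microRNA production, whereas Dicer makes both microRNAs and the endogenous small interfering RNAs of oocytes, so the design sets loss of microRNAs beside loss of both classes. Ages, the alleles and deleters behind the knockouts, and the number of females and oocytes pooled for an array were not given in the sources used here. In pooled cells of this kind a change in the number of oocytes cannot be told apart from a change in RNA per oocyte. The values were normalized between arrays, so neither change would show in them where every transcript shared it.

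Molecular chaperones hold unfolded proteins and help them reach their native shape. Hsp70 proteins bind and release short hydrophobic stretches in a cycle driven by ATP. J-domain proteins bring clients to Hsp70 and start its ATP hydrolysis, and Hsp110 proteins exchange its nucleotide. Hsp90 acts late, on nearly folded clients such as kinases. Chaperonins are double rings that enclose a client: the TRiC ring of Cct subunits folds actin and tubulin in the cytosol, and Hsp60 with its lid Hsp10 works in the mitochondrial matrix. Small heat shock proteins keep unfolded clients from clumping. The growing oocyte makes and stores the transcripts and proteins that the egg and early embryo use, and transcription is silent by metaphase II.

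Each targeted gene had lower signal in its own knockout. The log2 signal of Dgcr8 was 8.96 ± 0.10 (SD, n = 3) in wild-type and 5.71 ± 0.26 in Dgcr8 knockout oocytes, and that of Dicer1 was 11.67 ± 0.01 in wild-type and 10.72 ± 0.13 in Dicer knockout oocytes, 1.93-fold lower. Dicer1 had 11.68 ± 0.06 in Dgcr8 knockout oocytes. Dgcr8 had 8.46 ± 0.23 in Dicer knockout oocytes, each value below the wild-type ones, and was not called against wild-type (limma adjusted p 0.0644). Array medians over all probe sets lay between 5.48 and 5.58. The 14 oocyte marker genes had wild-type means from 9.19 for Ddx4 to 12.42 for Gdf9. Averaged over the whole list, oocyte markers had a signal of 11.52 to 11.61 in wild-type, 11.47 to 11.63 in Dgcr8 knockout and 11.62 to 11.77 in Dicer knockout arrays. In the same order, cumulus and granulosa markers had 5.13 to 5.22, 5.14 to 5.22 and 5.18 to 5.22. Immune and blood markers had 4.61 to 4.69, 4.59 to 4.67 and 4.64 to 5.11, and oviduct markers 6.33 to 6.36, 6.25 to 6.47 and 6.19 to 6.33. In Dicer knockout against wild-type oocytes, 2 of 14 oocyte markers were called higher, Zp2 by 0.40 (log2; limma adjusted p 0.0199) and Ddx4 by 0.62 (adjusted p 0.025). In that comparison 1 of 12 cumulus markers (Gata4) and 1 of 6 immune markers (Cd68) were called higher and 1 of 8 oviduct markers (Myh11) lower. Their part in the results below was not tested.

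Loss of Dicer went with higher signal of a few members and lower signal of as many others, and the median over the group was near 0. Dnajb14 and Dnajb9, J-domain proteins of the endoplasmic reticulum (ER), Hspb1, a small heat shock protein, and Hspe1, the lid of the mitochondrial chaperonin, were higher. Hsp90b1, the Hsp90 of the ER, Dnajc3, a J-domain protein of the ER, Dnajc13, a J-domain protein of endosomes, and Dnajc5, a J-domain protein of secretory vesicles, were lower. Calls were made at a limma adjusted p under 0.05, with the Benjamini-Hochberg adjustment taken over the 17324 tested genes. By this rule, in Dicer knockout against wild-type oocytes, 4 of the 76 tested members were called higher and 4 lower, which is 10.5% of them. Of all genes tested, 11.3% were called, 4.87% higher and 6.47% lower, so the share among the members lay near the background. The median log2 difference of the tested members was 0.0009, against -0.03 for all genes tested, with 38 members above 0 and 38 below. Dicer knockout and wild-type values did not overlap for 21 of the 76 members and for 26.2% of all genes tested. Between the knockouts, values did not overlap for 19 members and for 26.1% of all genes, so groups without overlap were common. The split depended on scaling: after quantile normalization 4 were called higher and 9 lower (14.2% of all genes called), and with each array centred on its median 3 higher and 0 lower (9.13% of all genes called).

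Each call was also refitted under 18 alternatives: a floor at 6 or none, both other scalings, a gene's probe sets averaged, plain eBayes settings (no trend, not robust), a fit of only both groups compared, weights for arrays, a replicate block (the replicate number as a term), and each of the 9 arrays left out. For Cct6a, Tomm20 and Sgtb 17 of these gave a result. The counts of called members rested on single arrays. Without wild-type replicate 2 there were 2 calls (2 higher, 0 lower), without wild-type replicate 3 there were 3 (2 higher, 1 lower), and without wild-type replicate 1 or Dicer knockout replicate 1 there were 5 in each case (3 higher, 2 lower). Leaving out Dicer knockout replicate 2 gave 2 higher and 5 lower. Calls were also unevenly spread over signal levels. Among all genes 3.02% were called at a mean log2 signal from 4 to 6, 14.2% from 6 to 8, 21% from 8 to 10, 19.7% from 10 to 12 and 4.55% from 12 to 14. The members called in these bands numbered 0 of 18, 3 of 17, 1 of 17, 4 of 23 and 0 of 1.

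**Figure D1:**
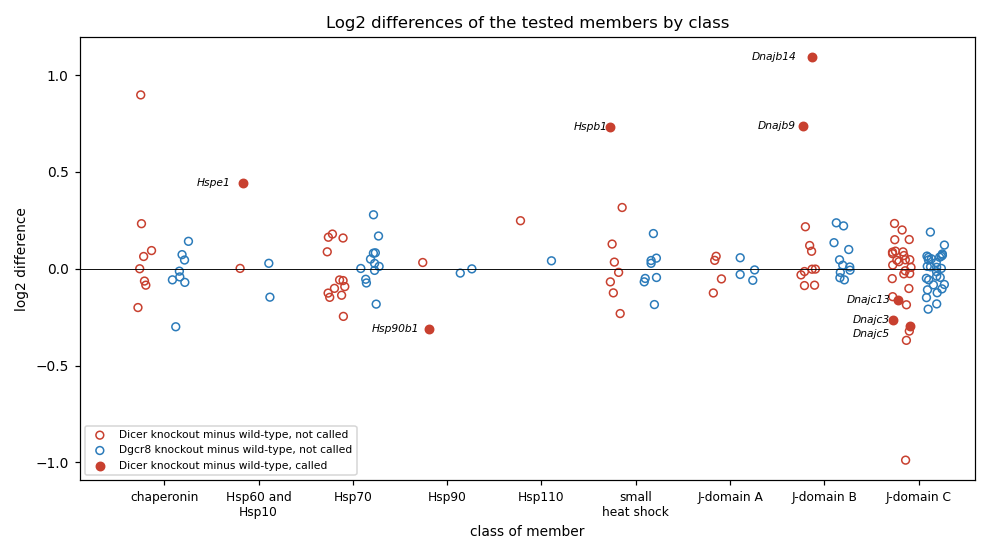
Log2 difference from wild-type (vertical axis) of each tested member, by class (horizontal axis), for Dicer knockout (red) and Dgcr8 knockout oocytes (blue). Each point is 1 gene, spread sideways for legibility, and filled points were called at an adjusted p under 0.05. The 8 called members, all in the Dicer knockout, reach from -0.31 to 1.09, and every Dgcr8 knockout point lies between -0.30 and 0.28.

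Loss of Dgcr8 was not accompanied by a call in any member. The 76 log2 differences from wild-type ran from -0.30 for Cct6a to 0.28 for Hspa13, an ER member of the Hsp70 class, with a median of 0.005 against -0.003 for all genes tested. No member was called (limma adjusted p 1.0 for all), and 0.0231% of all genes tested were called, 4 genes. At an unadjusted p under 0.05 stood 1 member, Dnajc5, and 457 genes in all (2.64%). The 95% confidence interval of the difference lay within 1 log2 unit on either side of 0 for 76 of 76 members, so a 2-fold difference was outside each interval, and within 0.5 for 68. The median half-width of these intervals was 0.228.

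Set against Dgcr8 knockout rather than wild-type oocytes, Dicer knockout oocytes had 5 members called higher (Cct6a, Dnajb14, Hspb1, Hspb11 and Hspe1) and 5 lower (Dnajc13, Dnajc3, Dnajc4, Dnajc5b and Hsp90b1). That is 13.2% of the 76 tested members, beside 13.4% of all genes tested (5.48% higher, 7.92% lower), and the median log2 difference was -0.01 against -0.02 for all genes. Quantile normalization gave 5 higher and 8 lower (16.6% of all genes called) and median centring 4 and 4 (11.2%). There were 5 calls without Dgcr8 knockout replicate 2 (2 higher, 3 lower) and 5 without Dgcr8 knockout replicate 3 (4 higher, 1 lower). Without Dgcr8 knockout replicate 1 or Dicer knockout replicate 3 there were 3 lower in each case, and without Dicer knockout replicate 2 there were 2 higher. This comparison uses the same Dicer knockout arrays as the one with wild-type, so the calls of both are given side by side for each gene.

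The cytosolic chaperonin ring was represented by Cct2, Cct3, Cct4, Cct5, Cct6a, Cct7 and Cct8 of its constitutive subunits, by Cct6b, which replaces Cct6a in the testis, and by Cct8l1. The gene of the remaining subunit, Tcp1, lies outside the rule and had a log2 difference of 0.12 (limma adjusted p 0.423) in Dicer knockout against wild-type oocytes. None of the 8 tested chaperonin members was called against wild-type, and their median log2 difference was 0.03. Signal levels of different genes come from different probes, and each gene is therefore compared only with itself.

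Cct6a, the zeta subunit, had the largest difference among the subunits. Its log2 signal was 5.52, 5.30 and 5.19 in the wild-type arrays, 5.28, 4.31 and 5.52 in the Dgcr8 knockout and 6.53, 6.44 and 5.74 in the Dicer knockout. All 3 Dicer knockout values lay above the other 6, while the second Dgcr8 knockout array was the lowest. The log2 difference was 0.90 ± 0.30 (SE) against wild-type, a 1.86-fold higher signal that did not pass the test (limma adjusted p 0.0884). Against Dgcr8 knockout it was 1.20 ± 0.30 (adjusted p 0.0252). That call did not hold, with adjusted p from 0.0503 to 0.0936, when only both groups were fitted or without Dgcr8 knockout replicate 2 or Dicer knockout replicate 1 or 2. Cct6a was not tested with the floor at 6, a signal it reached in fewer than 3 arrays.

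Against wild-type, the other tested subunits had differences of less than 0.25 in size, none called. Cct4 had 7.96, 7.85 and 7.83 in wild-type, 7.74, 7.97 and 7.81 in Dgcr8 knockout and 7.72, 7.67 and 7.65 in Dicer knockout arrays. The Dicer knockout values were the lowest of the 9, with a difference from wild-type of -0.20 ± 0.09 (log2, SE) that was not called (adjusted p 0.205). Cct7 had 8.07, 8.18 and 8.19, then 8.06, 7.97 and 8.23, and then 8.46, 8.49 and 8.18 in the same order, so its Dicer knockout arrays overlapped the others (difference from wild-type 0.23 ± 0.11, adjusted p 0.233). Its difference from Dgcr8 knockout was 0.29 ± 0.11 (adjusted p 0.118).

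For Cct2 the arrays read 10.19, 10.18 and 10.14 in wild-type, 10.11, 10.21 and 10.15 in Dgcr8 knockout and 10.06, 10.15 and 10.04 in Dicer knockout oocytes. Cct5 read 10.91, 10.88 and 10.69, then 10.67, 10.71 and 10.88, and then 10.99, 10.92 and 10.75. Cct8 read 10.51, 10.49 and 10.50, then 10.52, 10.52 and 10.60, and then 10.48, 10.31 and 10.53. These 3 subunits overlapped between Dicer knockout and wild-type, and their differences of -0.08, 0.06 and -0.06 (log2) were not called (adjusted p 0.392, 0.743 and 0.616).

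Cct3 had its highest value in 1 Dicer knockout array: 9.04, 9.03 and 8.95 in wild-type, 9.08, 8.96 and 9.20 in Dgcr8 knockout, and 9.56, 8.94 and 8.80 in Dicer knockout arrays. The difference was 0.09 (adjusted p 0.821), and the groups overlapped. Cct6b was near the floor, with 4.20, 4.18 and 4.22 in wild-type, 4.22, 4.60 and 4.20 in Dgcr8 knockout and 3.93, 4.71 and 3.96 in Dicer knockout arrays. Cct8l1, below the floor and not tested, lay between 3.62 and 4.11 over all 9 arrays.

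**Figure D2:**
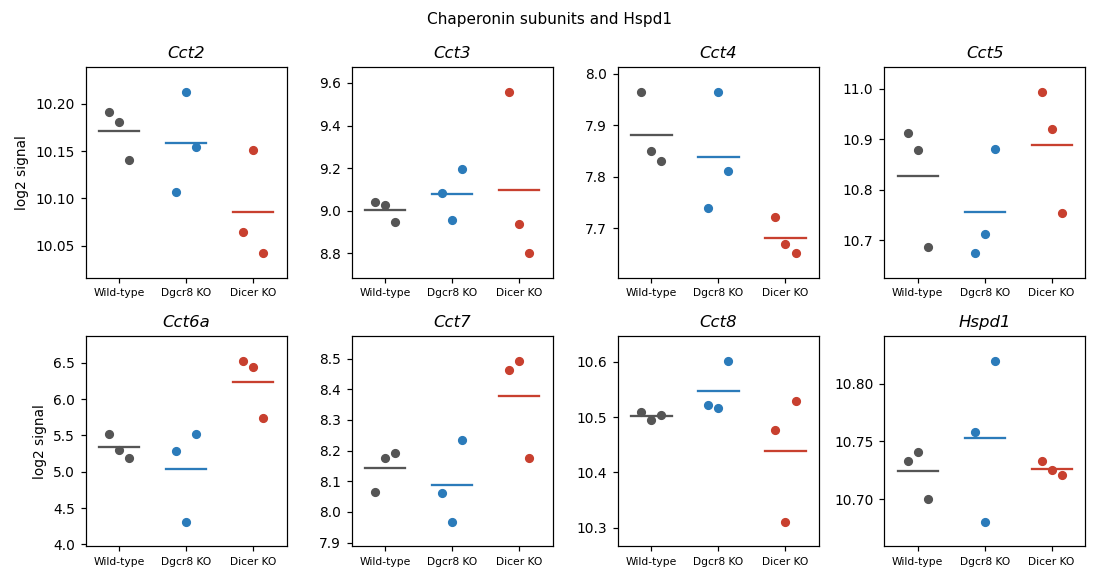
Log2 signal (vertical axis, scaled separately in each panel) of 7 chaperonin subunit genes and Hspd1 in the 3 arrays of each genotype (points, in replicate order) with the group mean (line). Cct6a is the only panel whose Dicer knockout values, 5.74 to 6.53, all lie above those of both other genotypes, and Cct4 the only one whose values, 7.65 to 7.72, all lie below.

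Of the mitochondrial chaperonin genes, Hspe1 rose and Hspd1 was not called. Hspe1 encodes Hsp10, the lid of the Hsp60 ring encoded by Hspd1. Hspe1 had a log2 signal of 10.90, 11.05 and 10.73 in wild-type, 10.51, 10.78 and 10.95 in Dgcr8 knockout and 11.43, 11.39 and 11.19 in Dicer knockout arrays, the last 3 being the highest. The difference was 0.44 ± 0.12 (SE; limma adjusted p 0.0343) against wild-type, 1.36-fold, and 0.59 ± 0.12 (adjusted p 0.00784) against Dgcr8 knockout. The first call did not hold (adjusted p 0.0511 to 0.132) with median centring, plain eBayes settings or a replicate block, or without wild-type replicate 1 or 3, Dgcr8 knockout replicate 2 or Dicer knockout replicate 1 or 2, whereas the second held in all 18 alternatives.

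Hspd1 had 10.73, 10.74 and 10.70 in wild-type, 10.76, 10.68 and 10.82 in Dgcr8 knockout and 10.73, 10.72 and 10.72 in Dicer knockout arrays. The Dicer knockout values fell inside the wild-type range, and the difference was 0.002 with a 95% interval of -0.10 to 0.10 (adjusted p 0.991). Hspa9, the Hsp70 of the mitochondrial matrix, had 10.96, 10.99 and 10.99, then 11.03, 11.03 and 11.12, and then 11.00, 10.80 and 10.84 in the same order. Its difference from wild-type was -0.10 (adjusted p 0.311), and at -0.18 (adjusted p 0.0526) it was the uncalled member nearest to the threshold against Dgcr8 knockout. Of 8 members placed in the mitochondrion from general knowledge after their values were seen, Hspe1 was the 1 called in either Dicer knockout comparison. The other 7, which include the J-domain proteins Dnaja3, Dnajc11, Dnajc15, Dnajc19 and Dnajc30, had differences from wild-type of -0.19 to 0.09. The set may leave out further members with a place in the mitochondrion, and these statements cover only the 8.

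Hspe1 and Hspd1 share a promoter region and are read in opposite directions from it. Their RefSeq windows of 250 bases before and 50 after the start (build GRCm38.p6, chr1:55087898-55088197 on the plus strand for Hspe1 and chr1:55087883-55088182 on the minus strand for Hspd1) have 285 bases in common. The 250 bases before the start of Hspe1, chr1:55087898-55088147 on the plus strand, are shown because 1 stretch of DNA precedes a called and an uncalled gene; capitals mark a pair of overlapping matches, 1 on each strand, to the heat shock element GAANNTTCNNGAA.
Hspe1: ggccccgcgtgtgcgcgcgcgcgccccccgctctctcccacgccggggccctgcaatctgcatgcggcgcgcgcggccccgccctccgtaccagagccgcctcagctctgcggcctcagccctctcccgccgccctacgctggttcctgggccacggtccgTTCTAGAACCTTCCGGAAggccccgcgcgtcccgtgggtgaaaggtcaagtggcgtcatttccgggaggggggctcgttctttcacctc
This motif, searched on both strands, occurred in 0.603% of all 32851 windows and in those of 4 members, Dnajb6, Hspd1, Hspe1 and Hsph1, of the 65 members with a window. Against wild-type, Dicer knockout oocytes had log2 differences of -0.002 for Dnajb6, 0.002 for Hspd1, 0.44 for Hspe1 and 0.25 for Hsph1, and of these Hspe1 was called.

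The Hsp70 class showed no call in either Dicer knockout comparison. Its 12 members, all tested, had differences from wild-type between -0.25 for Hspa1l and 0.18 for Hspa13, with a median of -0.08. Hspa8, the constitutive Hsp70 of the cytosol, had 11.80, 11.73 and 11.46 in wild-type, 11.41, 11.50 and 11.92 in Dgcr8 knockout and 11.98, 11.83 and 11.68 in Dicer knockout arrays. The groups overlapped (difference 0.16 ± 0.13, adjusted p 0.552). Hspa1a, a stress-inducible Hsp70, had a mean of 5.49 ± 0.10 (SD, n = 3) in wild-type and 5.65 ± 0.27 in Dicer knockout oocytes (adjusted p 0.536). Hspa5, the ER member known as BiP, had 10.45, 10.40 and 10.40 in wild-type, 10.39, 10.36 and 10.47 in Dgcr8 knockout and 10.44, 10.32 and 10.29 in Dicer knockout arrays, again overlapping (difference -0.06 ± 0.05, adjusted p 0.592). Hsph1, the Hsp110 nucleotide exchange factor of Hsp70, had a difference of 0.25 ± 0.08 from wild-type that missed the threshold (adjusted p 0.0665), with every Dicer knockout value above the wild-type ones.

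Of the Hsp90 genes, the cytosolic one was not called and the ER one fell; the difference between the genes was not tested. Hsp90aa1, the inducible cytosolic Hsp90, had 12.38 in each wild-type array, 12.33, 12.38 and 12.43 in Dgcr8 knockout and 12.49, 12.39 and 12.35 in Dicer knockout arrays. The Dicer knockout values lay on both sides of the wild-type level (difference 0.03 ± 0.04, adjusted p 0.711). Hsp90ab1 was not analysed here. Hsp90b1, the ER paralog also called Grp94, had 11.79, 11.84 and 11.85 in wild-type, 11.75, 11.80 and 11.87 in Dgcr8 knockout and 11.67, 11.56 and 11.32 in Dicer knockout arrays. Every Dicer knockout value was below the other 6. Its difference was -0.31 ± 0.07 (limma adjusted p 0.0228) against wild-type, 1.24-fold lower, and -0.29 ± 0.07 (adjusted p 0.0285) against Dgcr8 knockout. The call against wild-type did not hold (adjusted p 0.0534 to 0.0841) with median centring, plain eBayes settings or only both groups in the fit, or without wild-type replicate 1, 2 or 3. Against Dgcr8 knockout it did not hold (0.0507 to 0.102) in the same 3 settings, with a replicate block, or without Dgcr8 knockout replicate 1, 2 or 3.

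ER members moved in both directions. Of 8 members with a place or a J-domain in the ER lumen, assigned from general knowledge after their values were seen, 1 was called higher (Dnajb9) and 2 lower (Hsp90b1 and Dnajc3) against wild-type. The others, Dnajb11, Dnajc1, Dnajc10, Hspa13 and Hspa5, had differences of -0.06 to 0.18 with no call. Dnajc3, a BiP cofactor that is also known as an inhibitor of the kinase PERK, had 11.60, 11.59 and 11.52 in wild-type, 11.55, 11.53 and 11.67 in Dgcr8 knockout and 11.31, 11.19 and 11.42 in Dicer knockout arrays, without overlap between Dicer knockout and the rest. The difference was -0.26 ± 0.06 (limma adjusted p 0.0211) against wild-type, 1.20-fold lower, and -0.28 ± 0.06 (adjusted p 0.0154) against Dgcr8 knockout. The first did not hold (0.0610 to 0.0766) with median centring or plain eBayes settings, or without wild-type replicate 1 or 2 or Dicer knockout replicate 1. The second did not (0.0501 and 0.0588) with plain eBayes settings or without Dgcr8 knockout replicate 3.

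Dnajb9, also called ERdj4, which is known to hold the stress sensor IRE1 inactive through BiP, had 6.83, 6.64 and 6.17 in wild-type, 6.47, 7.06 and 6.83 in Dgcr8 knockout and 7.30, 7.25 and 7.31 in Dicer knockout arrays. The Dicer knockout values were the highest and nearly equal. The difference was 0.74 ± 0.18 (limma adjusted p 0.0270) against wild-type, 1.67-fold, and 0.50 ± 0.18 (adjusted p 0.107) against Dgcr8 knockout, which was not called. The call did not hold (0.0527 to 0.0875) with array weights, or without wild-type replicate 2 or 3 or Dicer knockout replicate 1, 2 or 3.

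**Figure D3:**
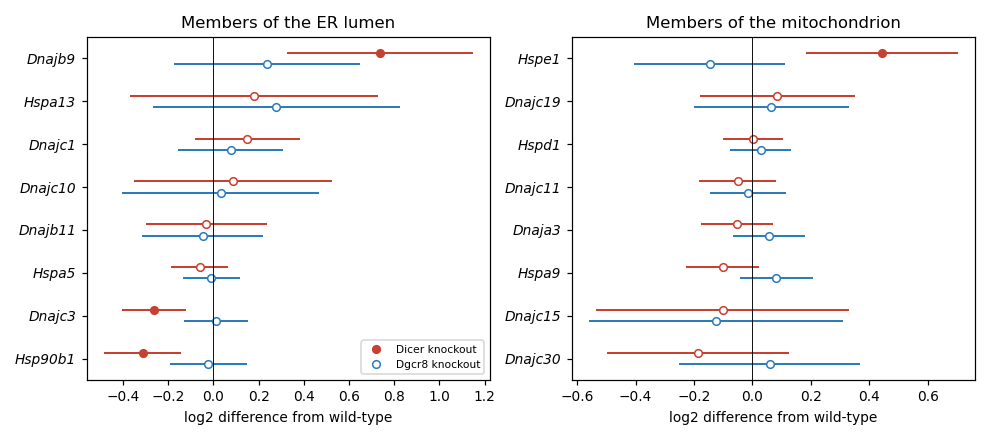
Log2 difference from wild-type (horizontal axis) with its 95% confidence interval (line) for 8 members of the ER lumen (left) and 8 of the mitochondrion (right), in Dicer knockout (red) and Dgcr8 knockout oocytes (blue). Filled points were called: Dnajb9 at 0.74, Dnajc3 at -0.26 and Hsp90b1 at -0.31 in the ER, and Hspe1 at 0.44 in the mitochondrion, all in the Dicer knockout.

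The promoters of 3 ER members hold a shared motif and are shown because 2 of these genes fell. The ER stress response element was searched as CCAAT and CCACG with 9 bases between them on both strands. It occurred in 0.119% of the 32851 RefSeq windows and in those of Dnajc3, Hsp90b1 and Hspa5 among the 65 members with a window. The windows are on build GRCm38.p6, at chr10:86705445-86705694 on the minus strand for Hsp90b1, chr14:118937682-118937931 on the plus strand for Dnajc3 and chr2:34771840-34772089 on the plus strand for Hspa5. Each line gives the 250 bases before the start, with matches in capitals, and Hsp90b1 holds 2 matches on opposite strands.
Hsp90b1: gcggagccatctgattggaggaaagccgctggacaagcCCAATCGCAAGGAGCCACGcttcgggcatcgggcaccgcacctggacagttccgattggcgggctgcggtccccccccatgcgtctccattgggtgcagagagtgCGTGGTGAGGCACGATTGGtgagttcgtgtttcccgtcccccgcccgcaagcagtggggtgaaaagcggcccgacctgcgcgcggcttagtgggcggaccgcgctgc
Dnajc3: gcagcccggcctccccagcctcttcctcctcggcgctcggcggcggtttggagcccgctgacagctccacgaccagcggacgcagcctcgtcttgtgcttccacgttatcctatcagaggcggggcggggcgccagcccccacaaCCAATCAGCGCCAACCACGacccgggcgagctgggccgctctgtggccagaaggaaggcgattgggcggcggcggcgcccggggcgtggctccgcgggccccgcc
Hspa5: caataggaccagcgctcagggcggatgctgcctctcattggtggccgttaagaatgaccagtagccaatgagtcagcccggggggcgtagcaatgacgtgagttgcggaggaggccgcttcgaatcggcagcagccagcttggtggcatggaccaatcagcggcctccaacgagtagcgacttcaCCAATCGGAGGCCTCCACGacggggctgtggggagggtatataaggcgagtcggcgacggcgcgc
The matches begin 212 and 107 bases before the start in Hsp90b1, 105 before it in Dnajc3 and 65 before it in Hspa5. Of these genes Hsp90b1 (-0.31) and Dnajc3 (-0.26) were called lower in Dicer knockout against wild-type oocytes, and Hspa5 (-0.06) was not called. The Dnajb9 window holds no such match. A second form of the element, ATTGG and CCACG 1 base apart, was in 0.0365% of windows and, of the members, in that of Dnajb11. CCAAT alone was in 37.4% of windows and in those of 28 members, and every match to the first form contains it. Together with the heat shock elements these were the 5 motifs searched, and the promoters printed were chosen after the values were known. Whether any motif bears on the signal of a gene was not tested.

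Among the small heat shock proteins, Hspb1 rose. Hspb1, also known as Hsp25, binds unfolded proteins and actin filaments. Its log2 signal was 6.81, 6.54 and 6.82 in wild-type, 6.66, 6.46 and 6.50 in Dgcr8 knockout and 7.12, 7.73 and 7.51 in Dicer knockout arrays, so that every Dicer knockout value was above the other 6. The difference was 0.73 ± 0.15 (SE; limma adjusted p 0.0122) against wild-type, 1.66-fold, and 0.92 ± 0.15 (adjusted p 0.00356) against Dgcr8 knockout, 1.89-fold. Of the 18 alternatives the call against wild-type was lost in 1, without wild-type replicate 2 (adjusted p 0.0526), and that against Dgcr8 knockout in none. The 250 bases before the start of Hspb1, on build GRCm38.p6 at chr5:135887669-135887918 on the plus strand, are printed because its calls held in nearly all alternatives; capitals mark 2 matches to the shorter heat shock element GAANNTTC, which reads the same on both strands and lies within the longer one given for Hspe1.
Hspb1: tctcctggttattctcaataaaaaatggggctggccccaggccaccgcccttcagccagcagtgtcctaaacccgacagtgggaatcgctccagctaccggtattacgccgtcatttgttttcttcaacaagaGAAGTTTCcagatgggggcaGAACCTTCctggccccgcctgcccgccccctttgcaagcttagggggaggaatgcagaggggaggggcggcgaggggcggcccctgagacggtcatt
The shorter element was in 7.86% of all windows and in those of 15 of the 65 members with a window, so a match is not particular to Hspb1. The difference between these shares was not tested.

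Hspb11, a subunit of the intraflagellar transport complex despite its name, had 8.74, 8.83 and 8.51 in wild-type, 8.62, 8.59 and 8.74 in Dgcr8 knockout and 8.92, 9.11 and 9.00 in Dicer knockout arrays. Its Dicer knockout values were the highest. The difference from wild-type, 0.32 ± 0.10, was not called (limma adjusted p 0.0663), and that from Dgcr8 knockout, 0.36 ± 0.10, was (adjusted p 0.0344). The call did not hold (0.0532 to 0.104) with median centring or a replicate block, or without wild-type replicate 1, Dicer knockout replicate 2 or 3, or Dgcr8 knockout replicate 1 or 2. The other 6 members of the class, Hspb2, Hspb3, Hspb6, Hspb7, Hspb8 and Hspb9, were not called, with differences from wild-type of -0.23 for Hspb8 to 0.13 for Hspb9.

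J-domain proteins made up 45 of the 79 members, and 43 of them were tested. The 4 of class A, which pair with Hsp70 in general folding, had differences from wild-type of -0.13 to 0.06 in Dicer knockout oocytes, with no call. In class B, Dnajb14 and Dnajb9 were called higher and the other 9 tested members were not called, among them Dnajb1, the main cytosolic partner of inducible Hsp70, at 0.22 ± 0.07 (limma adjusted p 0.0757).

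Dnajb14, a J-domain protein anchored in the ER membrane, had the largest difference from wild-type of any member. Its log2 signal was 6.36, 5.87 and 5.81 in wild-type, 6.47, 5.95 and 6.29 in Dgcr8 knockout and 6.94, 7.54 and 6.84 in Dicer knockout arrays, and the Dicer knockout values lay above all others. The difference was 1.09 ± 0.22 (SE; limma adjusted p 0.00916) against wild-type, 2.13-fold, and it was called in all 18 alternatives, with adjusted p from 0.00525 to 0.0441. Against Dgcr8 knockout it was 0.87 ± 0.22 (adjusted p 0.0244), which did not hold (0.0505 to 0.0906) with array weights or with Dicer knockout replicate 2 or Dgcr8 knockout replicate 2 or 3 left out. It was the only member called with at least a 2-fold difference from wild-type. Dnajb12, its relative in the same membrane, had a difference of -0.002 (adjusted p 0.996).

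In class C, 3 of 28 members were called lower than wild-type and none higher, beside 6.47% lower and 4.87% higher among all genes tested. The median log2 difference of the class was 0.013, with 15 members above 0 and 13 below. Dnajc13, an endosomal protein that acts with Hsc70 in membrane sorting, had 11.59, 11.66 and 11.69 in wild-type, 11.69, 11.66 and 11.72 in Dgcr8 knockout and 11.45, 11.49 and 11.52 in Dicer knockout arrays, below all others. Its difference of -0.16 ± 0.04 (limma adjusted p 0.0209), 1.12-fold, was small but larger than the spread, and against Dgcr8 knockout it was -0.21 ± 0.04 (adjusted p 0.00548). The former did not hold (0.0705 to 0.141) with median centring or plain eBayes settings, or without wild-type replicate 2 or 3 or Dicer knockout replicate 1. The latter did not with plain eBayes settings (0.0555).

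Dnajc5, the cysteine string protein of secretory vesicles, had 9.13, 9.04 and 9.20 in wild-type, 8.85, 8.95 and 8.94 in Dgcr8 knockout and 8.92, 8.73 and 8.84 in Dicer knockout arrays. Both knockouts lay below wild-type and overlapped each other. The difference in the Dicer knockout was -0.29 ± 0.08 (limma adjusted p 0.0358), the called value nearest to the threshold, and in the Dgcr8 knockout -0.21 ± 0.08 (adjusted p 1.0). The difference between the knockouts was -0.08 ± 0.08 (adjusted p 0.571). The Dicer knockout call was lost in 10 of 18 alternatives (0.0505 to 0.137): median centring, only both groups, a replicate block, and without wild-type replicate 1, 2 or 3, Dgcr8 knockout replicate 2 or 3, and Dicer knockout replicate 2 or 3.

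Dnajc5b, a paralog of Dnajc5, had the largest decrease and was the uncalled member nearest to the threshold against wild-type. It had 7.90, 8.63 and 8.39 in wild-type, 8.05, 8.56 and 8.89 in Dgcr8 knockout and 7.27, 7.86 and 6.84 in Dicer knockout arrays, the last below the other 6. The difference from wild-type was -0.99 ± 0.29 (limma adjusted p 0.0559), 1.98-fold lower. From Dgcr8 knockout it was -1.18 ± 0.29 (adjusted p 0.0236), 2.26-fold lower, which did not hold (0.0599 to 0.0927) with array weights or with Dicer knockout replicate 1 or 3 or Dgcr8 knockout replicate 2 or 3 left out.

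Dnajc4 had 6.53, 6.63 and 6.53 in wild-type, 6.85, 6.51 and 6.53 in Dgcr8 knockout and 6.05, 6.37 and 6.16 in Dicer knockout arrays. The Dicer knockout values were the lowest. The difference was -0.37 ± 0.12 from wild-type (limma adjusted p 0.0771) and -0.44 ± 0.12 from Dgcr8 knockout (adjusted p 0.0368), the called value nearest to the threshold in that comparison. It was lost in 9 of 18 alternatives (0.0545 to 0.124): only both groups, a replicate block, and without wild-type replicate 1, 2 or 3, Dicer knockout replicate 1 or 3, or Dgcr8 knockout replicate 1 or 3. The other 23 members of class C, Dnajc1 and Dnajc10 of the ER among them, had differences from wild-type between -0.32 for Dnajc17 and 0.23 for Dnajc5g and were called in neither Dicer knockout comparison.

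**Figure D4:**
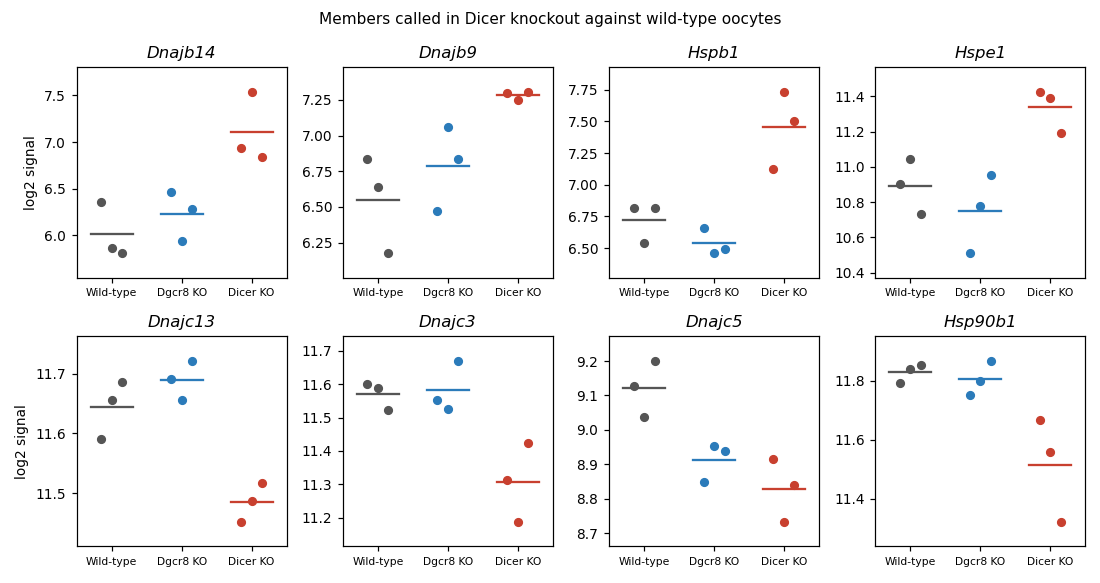
Log2 signal (vertical axis, scaled separately in each panel) of the 8 members called in Dicer knockout against wild-type oocytes, in the 3 arrays of each genotype (points, in replicate order) with the group mean (line). Means rise from wild-type to Dicer knockout from 6.01 to 7.10 for Dnajb14 and fall from 11.83 to 11.52 for Hsp90b1. In every panel, each chosen for its call, the Dicer knockout points lie clear of the wild-type points, as they do for 26.2% of all tested genes.

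Genes that work with the members were read from 5 lists. Of 107 tested genes, Dicer knockout against wild-type oocytes gave 11 higher and 10 lower calls (19.6%, beside 11.3% of all genes), and 0 in Dgcr8 knockout oocytes. By direction, 4.87% of all genes were called higher and 6.47% lower, which is the background for the counts of each list below. The heat shock factor list averaged 6.20 to 6.35 (log2) in wild-type arrays and the other lists 8.12 to 8.56. Of all genes, 3.02% were called at a mean signal from 4 to 6, 14.2% from 6 to 8 and 21% from 8 to 10. The list averages cover genes at lower levels too: Hsf2 and Sgtb, both called, each had a wild-type mean of 5.41. List genes were not matched to all genes by signal level, so whether level bears on their share was not tested. Without wild-type replicate 2 or 3 there were 12 calls in each case. The heat shock factor list had 4 tested genes: Hsf2, Hsf4, Hsf5 and Hsbp1, the last encoding a protein that binds such factors. Hsf1 had no probe set naming it alone and Hsf3 was below the floor, so neither was tested. Hsf2, a factor expressed in germ cells, was called higher, by 1.04 ± 0.23 (log2, SE, limma adjusted p 0.0149), and the median of the list was -0.03. Its signal was 5.45, 5.70 and 5.07 in wild-type, 5.45, 5.17 and 5.61 in Dgcr8 knockout and 6.94, 6.05 and 6.37 in Dicer knockout arrays, without overlap, and leaving out wild-type replicate 3 ended the call (adjusted p 0.0647).

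Partners of the chaperonin formed another list. Of 19 tested genes, 4 were called higher and 1 lower, with a median of 0.008. Pfdn5, a subunit of prefoldin, which hands actin and tubulin to the chaperonin, had 9.71, 9.80 and 9.75 in wild-type, 9.86, 9.66 and 9.66 in Dgcr8 knockout and 11.01, 10.99 and 10.86 in Dicer knockout arrays. The difference from wild-type was 1.20 ± 0.07 (limma adjusted p 5e-06). Tbcd, a tubulin folding cofactor that acts after the chaperonin, had 6.86, 6.38 and 6.50, then 6.70, 6.58 and 6.69, and then 8.69, 8.17 and 8.30 in the same order. Its difference was 1.81 ± 0.16 (adjusted p 7e-05). Vbp1, another prefoldin subunit, was higher by 0.54 (adjusted p 0.0017), and Tbca, a further tubulin cofactor, by 0.53 (adjusted p 0.00986). All 4 were called in the 18 alternatives. The gene called lower, Pfdn1, is a prefoldin subunit too. It had 8.91, 9.03 and 9.20 in wild-type, 8.88, 8.80 and 8.78 in Dgcr8 knockout and 8.79, 8.56 and 8.68 in Dicer knockout arrays, with a difference from wild-type of -0.37 ± 0.09 (adjusted p 0.0299). The call was lost (0.0553 to 0.116) when only both groups were fitted, with a replicate block, and without wild-type replicate 2 or 3 or Dicer knockout replicate 2 or 3. The prefoldin subunits called thus lay in both directions, and Pfdn2, Pfdn4 and Pfdn6 were not called.

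Genes of ER folding and the unfolded protein response had 1 of 32 called higher and 4 lower, with a median of -0.05. Pdia4, a disulfide isomerase, was at -0.42 ± 0.06 (log2, SE; limma adjusted p 0.00112), called in 18 of 18 alternatives. Canx, the lectin chaperone calnexin, was at -0.21 ± 0.04 (adjusted p 0.00625) and Ern1, which encodes IRE1, at -0.19 ± 0.04 (adjusted p 0.0174). Atf4, a transcription factor of the stress response, was higher by 0.41 ± 0.09 (adjusted p 0.0135). Hyou1, an ER relative of Hsp70, was at -0.34 ± 0.08 (adjusted p 0.02). Its call was lost (0.0503 to 0.0779) with median centring, with only both groups, or without wild-type replicate 2 or 3 or Dicer knockout replicate 3. The Canx call was lost with plain eBayes settings (0.0550) and that of Atf4 without wild-type replicate 2 or Dicer knockout replicate 1 (0.0520 and 0.0570). Ern1 was lost in 5 of 18 (0.0611 to 0.0976): median centring, plain eBayes settings, and without wild-type replicate 2 or 3 or Dicer knockout replicate 1. The Canx window holds the ER stress response element printed for Hsp90b1, and that of Pdia4 does not. Hyou1 had no window to search.

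Mitochondrial quality control genes had 3 of 18 called higher and 3 lower, with a median of -0.02. Trap1, the Hsp90 of mitochondria, which the rule does not take in, was higher by 1.09 ± 0.13 (log2, SE; limma adjusted p 0.00049), and Pam16, a subunit of the import motor, by 0.90 ± 0.14 (adjusted p 0.00295). Both were called in 18 of 18 alternatives. Grpel1, the nucleotide exchange factor of Hspa9, was at -0.39 ± 0.09 (adjusted p 0.0204) and Afg3l2, a subunit of an inner membrane protease, at -0.28 ± 0.07 (adjusted p 0.0277). Grpel1 was lost (0.0586 to 0.0854) without wild-type replicate 1 or 3 or Dicer knockout replicate 3. Tomm20, an outer membrane import receptor, was higher by 0.51 ± 0.13 (adjusted p 0.0277) and Pmpcb, a subunit of the mitochondrial processing peptidase, was at -0.36 ± 0.09 (adjusted p 0.0305). Each lost its call in 6 alternatives, among them the fit of only both groups and those without wild-type replicate 2 or 3 or Dicer knockout replicate 1 or 2 (0.0506 to 0.103 for Tomm20, which median centring also ended, and 0.0579 to 0.104 for Pmpcb, which leaving out wild-type replicate 1 also ended). Afg3l2 was lost (0.0557 to 0.0960) with median centring or a replicate block, or without wild-type replicate 1, 2 or 3 or Dicer knockout replicate 2 or 3.

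Of 34 tested co-chaperones of Hsp70 and Hsp90, 2 were called higher and 2 lower, with a median of -0.06. Nudcd3 was higher by 0.94 ± 0.10 (log2, SE; limma adjusted p 0.000234), called in 18 of 18 alternatives. Stub1, the ubiquitin ligase CHIP that binds Hsp70 and Hsp90, was higher by 0.59 ± 0.14 (adjusted p 0.0235), lost (0.0662 to 0.0893) without wild-type replicate 1 or 3 or Dicer knockout replicate 1 or 2. Chordc1, an Hsp90 partner, was at -0.43 ± 0.09 (adjusted p 0.0107), lost without wild-type replicate 2 (0.0510). Sgtb, which binds Hsp70, was at -0.60 ± 0.17 (adjusted p 0.0465) and was kept in 5 of 17 alternatives. Those that ended it (0.0521 to 0.157) were no floor, median centring, plain eBayes settings, only both groups, a replicate block, and leaving out wild-type replicate 1 or 2, any Dgcr8 knockout array, or Dicer knockout replicate 1 or 2.

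The stability of the 8 calls against wild-type was read from the fit with each array left out. Adjusted p stayed under 0.05 in all 9 of these fits for Dnajb14 and in 8 for Hspb1, the exception being wild-type replicate 2 at 0.0526. For the other 6 members at least 1 wild-type array and, apart from Hsp90b1, at least 1 Dicer knockout array was needed for the call.

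**Figure D5:**
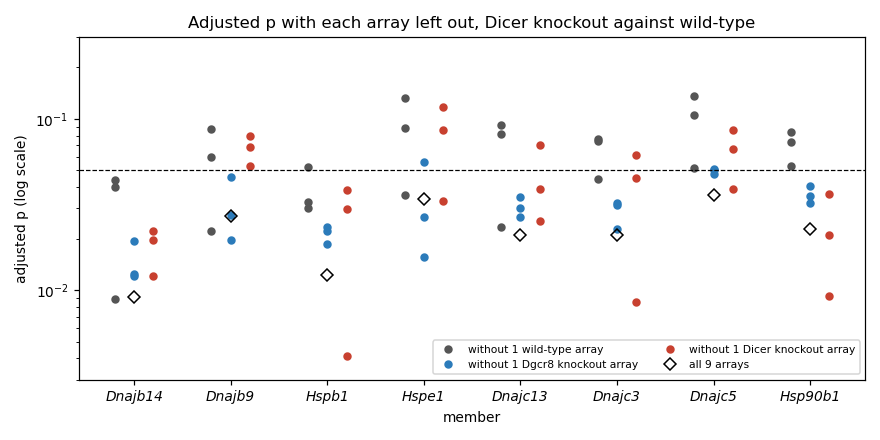
Limma adjusted p (vertical axis, log scale) of the 8 members called in Dicer knockout against wild-type oocytes (horizontal axis) with all 9 arrays (diamond) and with each array left out in turn (points coloured by the group of that array); the dashed line is at 0.05. Every Dnajb14 point lies under the line, with 0.0441 the highest of all its alternatives, while Hspe1 and Dnajc5 reach 0.132 and 0.137.

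Further probe sets were available for 8 members and were fitted with all probe sets together. The second set of Hspb1 gave a difference from wild-type of 0.71 beside 0.73 for the set used, and the second set of Hspe1 0.47 beside 0.44. All 15 sets of Dnajc13 had a difference below 0, from -0.39 to -0.16, and 6 of them were called lower. For Hspd1 the sets gave 0.002 and 0.06, for Hspa8 0.16 to 0.23, for Hsp90aa1 0.02 to 0.03 and for Dnaja1 0.06 and 0.14, with no call. The 2 sets of Dnajc3 hold identical values and count as 1 measurement. RefSeq names 7 pseudogene copies of Hspe1 and 5 of Hspd1, and 1 each of Cct3, Dnaja1, Dnajb6, Dnajc19 and Hspa9. Whether the probes also bind transcripts of such copies was not tested, so the signals of these genes may combine several sources. Probe set numbers of the members largely follow chromosome order. The sets used for Hspd1, Hspe1, Dnaja1 and Hsp90aa1 are numbered away from the other members of their chromosome. Where these sets lie, and whether several sets of a gene measure the same transcript, was not tested.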

How the data were processed

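RNA of 9 arrays, 3 for each genotype, was measured per probe set. Per the submitters' processing notes the authors deposited log2 values made with GCRMA, which corrects background by probe sequence, normalizes between arrays and summarises each probe set; neither its version nor its settings were stated in the sources used here. Values ran from 1.05 to 13.3, and a change shared by every transcript would not show in them. No further normalization was applied.

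Gene names came from the platform annotation: 21789 of 35557 probe sets name 1 gene, 1621 several and 12147 none here, and the symbols of all 79 members matched RefSeq (GRCm38.p6). Each gene was read from the probe set with the highest mean, and 17324 genes whose signal reached 4 (log2) in 3 or more of the 9 arrays were tested. Groups were compared in a single fit of all 9 arrays without covariates, with limma 3.58.1 in R 4.3.3 (lmFit and eBayes, trended and robust; statmod 1.5.0). Tests were two-sided, with Benjamini-Hochberg adjustment over all genes tested. Every adjusted p of a gene is from that limma fit; for further probe sets it is adjusted over all probe sets. The fit was tested on simulated data. The labels call the replicates biological; what separates them is not stated, and their number limits the precision.

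Values are given for every member called, for the chaperonin, Hsp90, Hspd1, Hspe1, Hspa5, Hspa8 and Hspa9 genes, for members nearest the threshold, and for up to 4 called genes of each pathway list; Pfdn1, Hyou1, Tomm20 and Pmpcb, the list genes called beyond these, were added after their values were seen. Alternatives are given in the closing section; those for pathway lists were added after seeing the data. The members and lists were chosen with earlier results of these data known, and the compartments, motifs and printed promoters after the values were seen. Promoter sequences are RefSeq's (GRCm38.p6), and 65 members had a window.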

Additional observations from a re-analysis of the deposited data

Results flagged for a closer look

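Some signal lay in probe sets that the gene table leaves out, because each gene was read from a single set. Adjusted over all probe sets, 5 further sets of Dnajc13 were called lower in Dicer knockout against wild-type oocytes, with log2 differences of -0.2925, -0.3076, -0.279, -0.2554 and -0.39 and limma adjusted p of 0.0309, 0.019, 0.0339, 0.00936 and 0.00351. The second set of Hspb1 was called higher by 0.706 (adjusted p 0.0331), with values of 6.77, 6.49 and 6.69 in wild-type and 6.98, 7.56 and 7.54 in Dicer knockout arrays. The second set of Hspe1 was called higher by 0.4655 (adjusted p 0.0449), with 10.85, 10.93 and 10.62 in wild-type and 11.36, 11.28 and 11.15 in Dicer knockout arrays; the Hspe1 set used for the gene had an adjusted p of 0.0594 on that basis. In each of these sets every Dicer knockout value lay on 1 side of the wild-type values. The second set of Dnajc3 holds the values of the first and is not counted here. Groups of 3 arrays are too small for a test of single outlying arrays.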

How the results depend on the processing

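No gene called and named reversed its direction in an alternative. The medians over the members, all near 0, did change sign: against wild-type the median was 0.00087 and became -1.833e-05 with no floor, -0.026 with quantile normalization and -0.00089 with the wider member rule, and the sign turned in leave-one-out fits of all 3 comparisons. The count of called members in Dgcr8 knockout against wild-type oocytes was 0 in every alternative. Against wild-type, members called in the Dicer knockout numbered 13 with quantile normalization (9 lower), 3 with median centring (0 lower), 4 without trend and robust settings (1 lower) and 1 at an adjusted p under 0.01 (1 higher, 0 lower), and 2 were called lower with only both groups in the fit. Against Dgcr8 knockout, those called lower numbered 8 with quantile normalization and 3 without trend and robust settings, with only both groups or with the replicate block, and at 0.01 there were 3 calls (2 higher, 1 lower); the median log2 difference moved to -0.041 with quantile normalization. With each array left out, calls against wild-type ranged from 2 to 9 (higher 2 to 5, lower 0 to 5) and against Dgcr8 knockout from 5 to 9 (higher 2 to 6, lower 1 to 5), and the medians ranged from -0.011 to 0.008 against wild-type, from -0.030 to 0.009 between the knockouts and from -0.011 to 0.027 for Dgcr8 knockout. Pathway list genes called, alternatives chosen after seeing the data, were 9 and 10 at 0.01, 14 against Dgcr8 knockout with only both groups, and 12 to 23 and 14 to 21 with each array left out. The causes were not tested. The replicate numbers did not pair the arrays (correlation of deviations -0.24 to 0.11 for equal numbers), and beside the counts given, the replicate block ended the calls named in the report and no others among the members. Requiring a digit only after Cct added Hspbp1 and Hspbap1 and left every count within 1.5 times. Signals near the floor and 3 arrays a group limit what small differences can be seen.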

Other observations

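10 probe sets name a member together with other genes, and 8 of them passed the floor. None was called in Dicer knockout against wild-type oocytes (limma, lowest adjusted p 0.694). Hspa1b was measured only on a set shared with Hspa1a. The 4 sets named for both Gm4247 and Dnajb6 were not used for Dnajb6. In 5 members the 3 arrays of a group hold the same value.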
